A study of Mus musculus with 20 samples.

Results

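The genes studied here are 9 tissue-specifying transcription factors of the basic helix-loop-helix (bHLH) class, taken by name from 21938 protein-coding genes: 5 neural genes (Neurog1, Neurog2, Neurod1, Atoh1 and Olig2), 2 skeletal muscle genes (Myod1 and Myf5) and 2 heart and mesoderm genes (Hand1 and Hand2). For each gene, all H3K27me3 peaks within 5 kb of a transcription start site (TSS) were listed in 10 peak lists, and KLF4 peaks and JMJD3 positions within 50 kb in 4 further lists. The lists were made by ChIP-seq, the sequencing of DNA immunoprecipitated with its bound proteins, of mouse embryonic fibroblasts (MEFs), connective tissue cells from embryos, and of MEFs on the way to induced pluripotent stem cells.

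The H3K27me3 lists cover untreated MEFs (day 0) and MEFs at day 5 and day 10 after infection with OSKM viruses, which carry the reprogramming factors Oct4, Sox2, Klf4 and c-Myc, in medium with vitamin C. Reprogramming cells carried either a FLAG control vector or a vector that overexpresses JMJD3, the demethylase that removes H3K27me3, so that 8 lists form 4 pairs of FLAG and JMJD3. Each time and vector was measured in wild-type (WT) cells of strain C57BL/6J-OG2, which hold an Oct4-GFP reporter, and in Jmjd3-/- knockout (KO) cells of strain C57Bl6J. By these labels strain and genotype cannot be told apart, and the deletion itself was not checked, since peak lists do not show transcripts. For its knockout reprogramming the paper describes littermate WT and KO MEFs without the reporter, which differs from the labels. It does not say whether the ChIP-seq used the same littermates. The 2 KLF4 lists (FLAG and JMJD3 vector) and the 2 lists of FLAG-tagged JMJD3 (OSKM, and OSKM with a low dose of KLF4) are from WT strain C57BL/6J-OG2 at day 5. The labels call the OSKM vectors lentiviral, whereas the protocol describes pMXs retroviruses. There was 1 library per group, so values, ranks and counts are given without a test, and no difference below has a replicate check.

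H3K27me3 is laid down by Polycomb repressive complex 2 and marks genes kept silent, above all developmental regulators with CpG-rich promoters. bHLH factors of the neural, muscle and heart classes bind E-box DNA (CANNTG, where N is any base) as dimers with the widely expressed E proteins, and a single factor of this kind can direct a cell towards its lineage: Myod1 turns fibroblasts into muscle cells, and Neurog2 drives neuronal differentiation. Id proteins block the dimers. In fibroblasts these lineage factors are normally silent.

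The H3K27me3 lists held 3045 to 6954 peaks of 1000 bp each, with a score from the peak caller on an unstated scale. Within each list peaks were ranked by score, and the rank is given as a percent of the list (a small percent is near the top). The rank says where a peak stands among the peaks of its own list and is no measure of the amount of H3K27me3. Of 8 fibroblast marker genes, which active fibroblasts are known to transcribe, 5 had a peak in no list, Col1a1 and Postn in 1 list each and Thy1 in 6; over all protein-coding genes 77.6% had a peak in no list.

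Promoters of 7 of the 9 genes were found in the RefSeq table of GRCm38.p6 (250 bp before to 50 bp after the start). Printed here are 4 that differ in CpG content and in H3K27me3, 5' to 3' on the gene's strand with each CpG in capitals: Neurog1 (chr13:56252131-56252430, minus strand) and Neurog2 (chr3:127632886-127633185, plus strand) from the neural class, Hand2 (chr8:57320733-57321032, plus strand) from the heart class and Myf5 (chr10:107486085-107486384, minus strand) from the muscle class.
Neurog1: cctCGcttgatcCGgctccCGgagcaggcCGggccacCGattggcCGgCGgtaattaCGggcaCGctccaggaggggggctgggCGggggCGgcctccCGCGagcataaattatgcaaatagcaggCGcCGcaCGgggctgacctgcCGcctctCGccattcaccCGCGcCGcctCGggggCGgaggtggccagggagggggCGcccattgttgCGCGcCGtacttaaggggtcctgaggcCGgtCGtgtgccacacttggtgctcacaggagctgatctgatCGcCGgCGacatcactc
Neurog2: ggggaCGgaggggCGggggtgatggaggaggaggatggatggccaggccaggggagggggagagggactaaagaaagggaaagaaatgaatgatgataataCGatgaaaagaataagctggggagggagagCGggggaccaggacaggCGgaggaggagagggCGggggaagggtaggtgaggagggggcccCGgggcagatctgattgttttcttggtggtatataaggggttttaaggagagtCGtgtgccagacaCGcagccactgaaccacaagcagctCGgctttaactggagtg
Hand2: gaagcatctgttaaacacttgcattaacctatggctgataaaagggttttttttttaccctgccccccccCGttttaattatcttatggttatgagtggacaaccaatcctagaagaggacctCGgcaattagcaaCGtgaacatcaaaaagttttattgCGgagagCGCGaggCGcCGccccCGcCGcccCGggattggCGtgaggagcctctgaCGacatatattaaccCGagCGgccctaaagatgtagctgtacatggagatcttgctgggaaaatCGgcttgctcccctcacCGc
Myf5: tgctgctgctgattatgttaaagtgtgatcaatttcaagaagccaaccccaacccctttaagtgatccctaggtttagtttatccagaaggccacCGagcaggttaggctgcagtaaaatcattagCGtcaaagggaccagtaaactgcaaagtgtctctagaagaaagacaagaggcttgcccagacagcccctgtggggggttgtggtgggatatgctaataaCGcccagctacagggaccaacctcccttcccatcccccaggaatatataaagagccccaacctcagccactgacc

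Neurog1 held 32 CpG in these 300 bp, more than 87.6% of the 16517 protein-coding promoters in the table. Neurod1 held 26 CpG, Olig2 25, Atoh1 20 and Hand2 17, all above the median of 14 over all promoters. Neurog2 held 10 CpG and Myf5 only 3, a count undercut by 18.0% of promoters. The 4 promoters with 20 CpG or more belong to genes with an H3K27me3 peak in all 10 lists (Neurog1, Neurod1, Olig2 and Atoh1). The other 3 had a peak in 9 (Neurog2), 7 (Hand2) and 0 lists (Myf5). These calls take in peaks up to 5 kb away, and the order does not hold closer to the promoter. Within 2 kb Neurod1 had a peak in 9 lists, Olig2 in 7, Neurog2 in 8 and Hand2 in 7. Myod1 and Hand1, both with a peak in all 10 lists within 5 kb, have no promoter in this comparison. Across the genome, promoters with a peak in all 10 lists had a median of 19.5 CpG (n = 740), and those with a peak in none had 13 (n = 12917). Myf5 lies in the CpG-poor part of the set without a peak, which holds many CpG-rich promoters too.

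**Figure D1:**
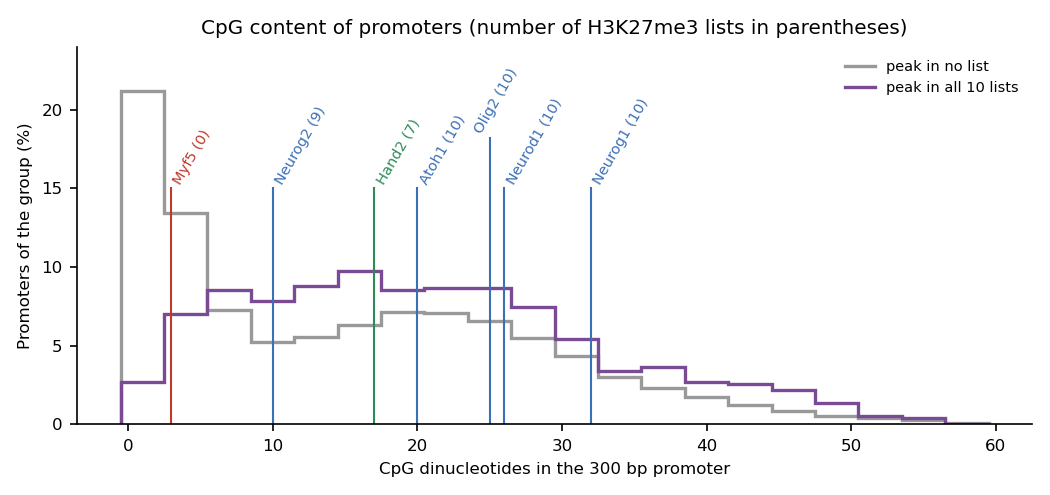
CpG dinucleotides in the 300 bp promoter (x axis) for promoters with an H3K27me3 peak in all 10 lists and in no list (lines, percent of each group on the y axis in steps of 3 CpG), with vertical lines for 7 bHLH genes coloured by class (neural blue, muscle red, heart green) and the number of their lists in parentheses; line height has no meaning. Myf5 sits at 3 CpG, in the tall left part of the line for promoters without a peak, and Neurog1 at 32.

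The bHLH lineage genes were covered by H3K27me3 far more often than the average gene, in every cell state. Of the 9 genes, 6 (Neurog1, Neurod1, Atoh1, Olig2, Myod1 and Hand1) had a peak within 5 kb of the TSS in all 10 lists, a pattern found in 4.68% of all protein-coding genes. Within 2 kb it held for 3 of the 9 (Neurog1, Atoh1 and Myod1; 3.87% of all genes), and with the better-scoring 50% of each list for 4 (Neurog1, Olig2, Myod1 and Hand1; 2.48%). Myf5 had none in any list, as had 77.6% of genes. By class, a peak was present in 49 of 50 gene and list combinations for the neural genes, in 10 of 20 for the muscle genes (all Myod1) and in 17 of 20 for the heart genes. Over all genes the share with a peak was 8.26% to 14.7%, depending on the list. The order of heart and muscle rests on the window: within 2 kb Hand1 had a peak in 3 lists, Hand2 in 7, Myod1 in 10 and Myf5 in 0. Lists of the same gene are not independent, so each class compares few genes.

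In WT MEFs 7 of the 9 genes had a peak, against 14.6% of all genes, and in KO MEFs 8 had one, against 10.3%. At day 5 the numbers were 8 in WT FLAG cells (14.7% of all genes), 7 in WT JMJD3 cells (11.0%), 8 in KO FLAG cells (13.7%) and 8 in KO JMJD3 cells (13.0%). At day 10 they were 7 with WT FLAG (12.1%), 7 with WT JMJD3 (8.26%), 8 with KO FLAG (12.8%) and 8 with KO JMJD3 (11.7%). The count of bHLH genes moved by 1 gene at most, while the share of all genes ranged from 8.26% to 14.7%. At the median, the best peaks of the bHLH genes were also nearer the top than those of all marked genes. The median rank of the best peak over the bHLH genes lay between 7.46% and 31.5% of the list in the 10 libraries, and that over all genes with a peak between 30.4% and 39.1%. It was below the all-gene median in 10 of 10 libraries, with the narrowest gap in KO MEFs (31.5% against 36.5%). A best rank is the best of all peaks of a gene in the window, which favours genes with several peaks. Hand1 had 2 to 4 per list, and the part of peak number in this difference was not tested. Single genes stood lower than the all-gene median, among them Olig2 and Atoh1 in WT MEFs (43.2% and 36.5%), Neurod1 in KO MEFs (51.3%) and Atoh1 in day 5 KO FLAG cells (88.8%).

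**Figure D2:**
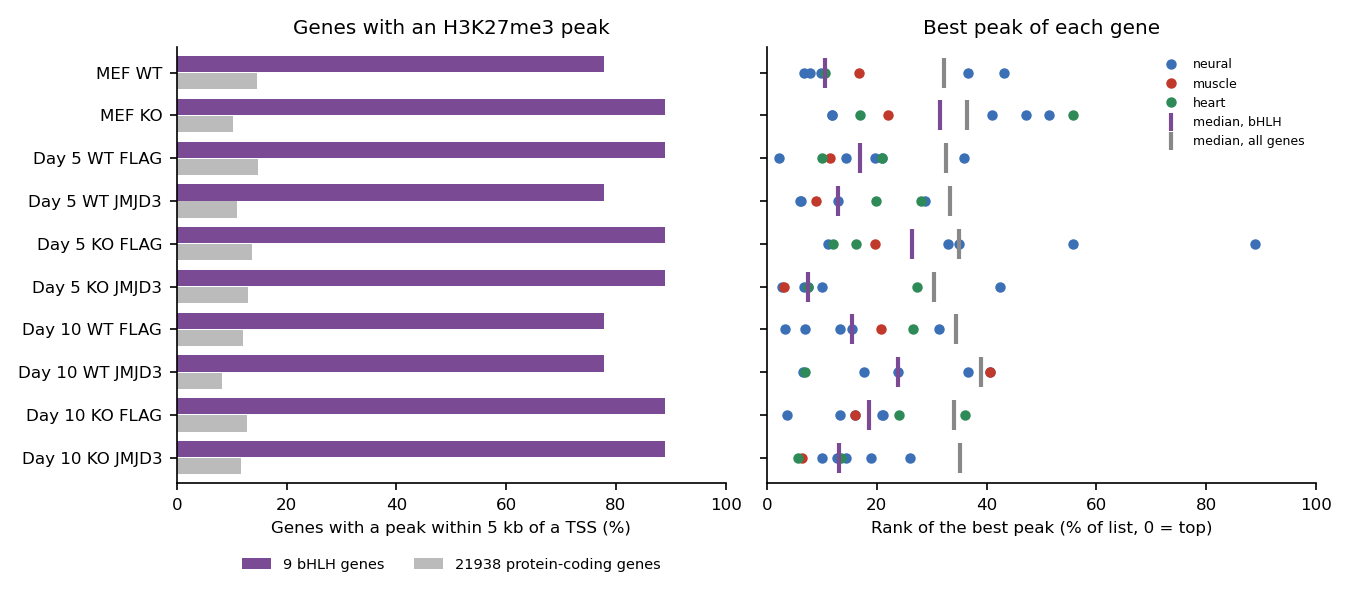
Left, percent of genes with a peak of H3K27me3 inside the 5 kb window (x axis) in each of the 10 libraries, for the 9 bHLH genes and all 21938 protein-coding genes; right, rank of each gene's best peak as a percent of its list (x axis, 0 is the top), with 1 point per bHLH gene and bars at the medians. In all 10 libraries 7 or 8 of the 9 genes had a peak, and the bHLH median lay to the left of the all-gene median.

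**Figure D3:**
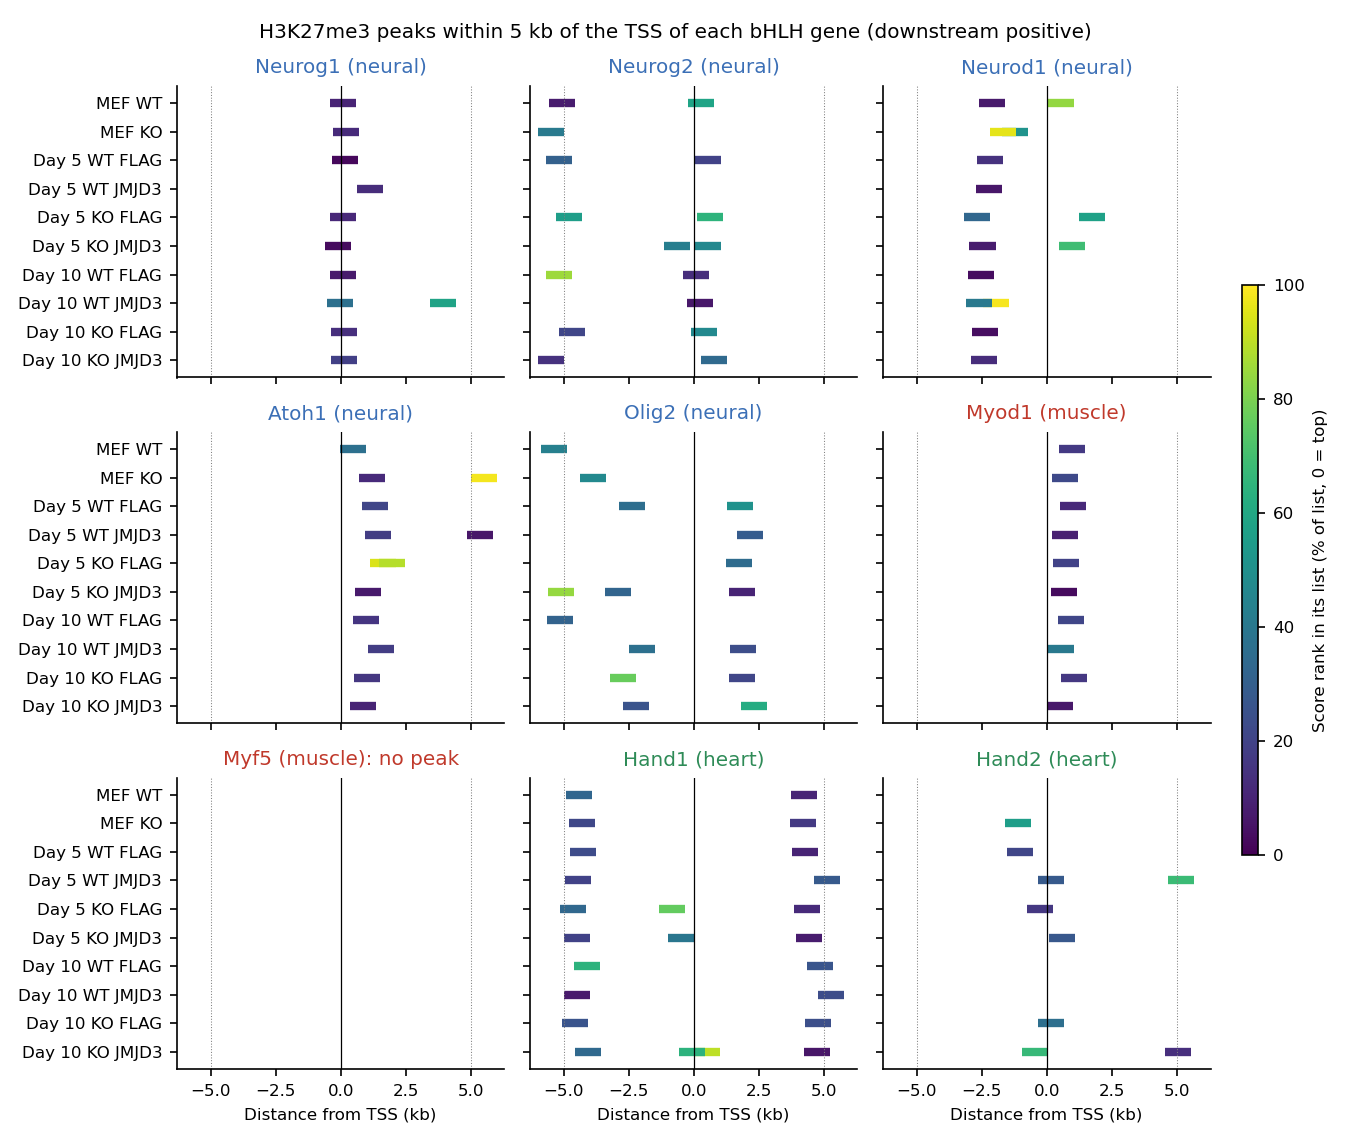
Position of every H3K27me3 peak that reaches within 5 kb of the TSS (x axis, kb from the TSS, downstream positive; dotted lines at 5 kb) for the 9 genes in the 10 libraries (rows); each bar is 1 peak of 1000 bp, and its colour is the score rank of the peak in its list. Myod1 keeps a peak at overlapping positions in all 10 rows, Neurog1 does so in all but day 5 WT JMJD3, where its peak lies farther into the gene, Hand1 has peaks on both sides of its TSS, and Myf5 is empty.

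Among the neural genes, Neurog1 (chr13:56250478-56252163, minus strand), a determination factor of sensory neurons, had a peak at or beside its TSS in all 10 lists. In 9 of them the peak spanned the TSS, and with JMJD3 in WT cells at day 5 it began 615 bp away. Its best rank ran from 2.13% (day 5 WT FLAG) over a median of 11.4% to 36.5% (day 10 WT JMJD3). Most Neurog1 peaks had their midpoint in its own exon (8 of 11).

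Neurog2 (chr3:127633135-127635631, plus strand), which directs progenitors of the cortex and spinal cord to become neurons, had peaks at 2 places. A peak with its midpoint between -5495 and -4683 bp was called in 7 lists, and peaks between -653 and +780 bp in 8. In KO MEFs the upstream peak alone was called, 4995 bp from the TSS at its nearest edge, and in day 5 KO JMJD3 and day 10 WT JMJD3 cells only the peaks at the TSS were within the window. The best rank ranged from 6.50% (day 10 WT JMJD3) to 55.7% (day 5 KO FLAG), with a median of 19.6% over 9 lists. The list without a Neurog2 peak was day 5 WT JMJD3, where the nearest peak stood 5400 bp from the TSS, just beyond the 5 kb limit.

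Neurod1 (chr2:79452521-79456751, minus strand) encodes a factor of neuronal and endocrine differentiation, and its peaks lay mostly upstream. A peak with a midpoint between -2659 and -1224 bp was called in all 10 lists, in an exon or intron of the non-coding gene Gm26755, and 3 lists had another inside the gene. In the annotation a transcript of the same-strand gene Cerkl also starts beside the Neurod1 TSS, so peaks here cannot be assigned to Neurod1 alone. The best rank ran from 3.31% (day 10 WT FLAG) through a median of 10.1% to 51.3% (KO MEFs).

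Atoh1 (chr6:64729125-64731245, plus strand), the factor that specifies cerebellar granule cells and inner ear hair cells, had its peak over its own exon, with midpoints from +493 to +1981 bp in all 10 lists. A further stretch at about +5.4 kb (midpoints +5341 and +5495 bp) counted in 2 lists but was overlapped by a peak in all 10, since in the others the peak fell just outside the window. The best rank of Atoh1 had the widest span of the 9 genes, from 5.92% (day 5 WT JMJD3) over a median of 15.7% to 88.8% (day 5 KO FLAG). The rank of 5.92% belongs to the peak at +5341 bp, and the peak over the exon ranked at 17.6% in that list.

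Olig2 (chr16:91225457-91228677, plus strand), needed for motor neurons and oligodendrocytes, had peaks called at different places in different lists. They fell at 3 places, between -5357 and -5105 bp in 3 lists, between -3865 and -1992 bp in 6 lists, and between +1763 and +2334 bp in 7 lists. The farthest upstream stretch was overlapped by a peak in 7 lists, in some of which the peak fell just outside the 5 kb window. Within the window, untreated MEFs of both genotypes had only an upstream peak, and 7 of the 8 reprogramming lists had the peak inside the gene; day 10 WT FLAG was the exception. With a median best rank of 30.1% (10.0% to 47.1%), Olig2 stood lowest in rank among the neural genes.

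The muscle pair differed completely. Myod1 (chr7:46376474-46379099, plus strand), the master regulator of skeletal muscle, had exactly 1 peak in each of the 10 lists. Its midpoint stayed between +526 and +1055 bp, in an exon (6 lists) or an intron (4 lists) of the gene, and its rank ran from 3.12% (day 5 KO JMJD3) through a median of 16.4% to 40.5% (day 10 WT JMJD3). Myf5 (chr10:107482908-107486134, minus strand), which acts beside Myod1 in setting up the muscle lineage, had no peak within 50 kb in any list. The nearest stood 212537 to 213597 bp from its TSS in 9 lists and 2967355 bp away in KO MEFs. Of the other muscle bHLH genes, Myf6, the neighbour of Myf5 in the genome, and Myog, the differentiation factor, also had no peak in any list.

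The heart genes were both marked, at different places. Hand1 (chr11:57828705-57832818, minus strand), used in the heart, placenta and other mesoderm, was flanked in all 10 lists by a peak between +4209 and +5277 bp, at the end of the gene, and another between -4638 and -4050 bp. Its own TSS region (-838 to +500 bp) carried a peak only in day 5 KO FLAG, day 5 KO JMJD3 and day 10 KO JMJD3 cells, at ranks of 39.4% to 90.1%. The best rank of Hand1, always from a flanking peak, lay between 5.58% and 26.6% with a median of 11.2%. Hand1 had 2 to 4 peaks per list and 24 in all, the most of the 9 genes.

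Hand2 (chr8:57320983-57324633, plus strand), required for the right ventricle and limb, was the gene whose call changed most often. Peaks at its TSS (midpoints -1120 to +593 bp) were called in 7 lists, all 5 KO lists and both WT lists of day 5. They were missing from WT MEFs and from both WT lists of day 10, where the nearest peak stood 7143 bp (WT MEFs), 7436 bp (FLAG) and 11880 bp (JMJD3) away. The ranks of these TSS peaks ran from 16.3% (day 5 KO FLAG) over a median of 28.0% to 66.97% (day 10 KO JMJD3). A further peak at about +5.1 kb, at the edge of the window, was called in 2 lists, at ranks of 13.4% (day 10 KO JMJD3) and 68.3% (day 5 WT JMJD3). Of its 9 peaks, 6 had their midpoint in Hand2os1, the antisense non-coding gene that starts beside Hand2, and ChIP-seq does not separate the strands.

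The comparison of FLAG and JMJD3 cells asked whether adding the demethylase removed peaks from these genes. At day 5 in WT cells, 1 of 8 bHLH genes with a FLAG peak had none with JMJD3 (Neurog2), whereas 31.8% of all genes with a FLAG peak had none. At day 5 in KO cells it was 0 of 8 (20.5% of all genes), at day 10 in WT cells 0 of 7 (41.3%) and at day 10 in KO cells 0 of 8 (25.1%). Within 10 kb the day 5 WT count was 0 and the day 10 WT count 1 (Hand2). The share over all genes was not computed for that window. Genes whose FLAG peak ranked in the best 25% of the list lost it less often, in 5.70% (WT) and 2.14% (KO) of cases at day 5, and in 17.0% (WT) and 5.19% (KO) at day 10. In the 4 FLAG lists, 7 (WT) and 4 (KO) of 8 marked bHLH genes ranked in the best 25% at day 5, and 5 of 7 (WT) and 7 of 8 (KO) at day 10. Over all genes with a peak the shares were 39.1% (WT) and 37.5% (KO) at day 5, and 38.6% (WT) and 38.45% (KO) at day 10. Counts of 0 or 1 gene do not set the bHLH genes apart.

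The same comparison by position gave 3 of 11 FLAG peaks near these genes without an overlapping JMJD3 peak at day 5 in WT cells, where the share over all FLAG peaks near a TSS was 36.7%. In day 5 KO cells it was 0 of 13 (24.3%), in day 10 WT cells 1 of 9 (47.8%) and in day 10 KO cells 0 of 11 (30.4%). These counts depend on the overlap asked for: where at least 50% of a FLAG peak had to be covered, 6 (WT) and 5 (KO) peaks were without a JMJD3 peak at day 5 (47.1% and 35.5% of all FLAG peaks near a TSS), and 3 (WT) and 4 (KO) at day 10 (57.99% and 42.6%). The 3 peaks of day 5 WT cells were those of Neurog2 at +540 bp (rank 19.6%), Olig2 at -2359 bp (35.8%) and Hand2 at -1020 bp (20.97%). The nearest JMJD3 peak lay 5441 bp from the Neurog2 peak and 2538 bp from the Olig2 peak, but only 179 bp from that of Hand2. The peak of day 10 WT cells was the upstream peak of Neurog2 at -5169 bp, which ranked low in its list (85.4%).

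The rank of the best peak moved in both directions with JMJD3. The lists of a pair differed in length, with 6428 (FLAG) and 5064 peaks (JMJD3) in day 5 WT, 5643 and 6539 in day 5 KO, 5131 and 3045 in day 10 WT and 5376 and 4878 in day 10 KO cells. A percent rank depends on how many peaks the list holds, and the part of list length in these changes was not tested. In day 5 KO cells all 5 neural genes and Myod1 stood nearer the top with JMJD3, with a median change of -25.0 percentage points for the neural genes. Atoh1 went from 88.8% to 6.70%, Neurod1 from 33.0% to 7.49%, Olig2 from 35.0% to 10.0%, and Myod1 from 19.7% to 3.12%. Hand2 was the exception, at 16.3% with FLAG and 27.3% with JMJD3. In all, 7 of 8 bHLH genes were nearer the top, with a median of -14.9 points, against 55.3% of all genes with a peak in both lists and a median of -1.83 points.

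The other 3 pairs were more mixed. In day 5 WT cells 4 of 7 genes stood nearer the top with JMJD3 (35.8% of all genes), among them Neurod1 (14.4% to 6.12%), whereas Neurog1 went from 2.13% to 12.8%. In day 10 WT cells it was 3 of 7 (34.7%), with Neurod1 falling from 3.31% to 40.6% and Neurog1 from 6.90% to 36.5% of the list. In day 10 KO cells it was 5 of 8 (45.9%), led by Hand2 (36.0% to 13.4%) and Hand1 (24.0% to 5.58%). The best peak was not always the same peak in both lists. For Hand2 in day 10 KO cells, the JMJD3 peak that overlapped the FLAG peak ranked at 67.0%, and the one that ranked at 13.4% lay at +5051 bp. With overlapping peaks alone the numbers nearer the top were 3 of 5 (WT) and 7 of 8 (KO) at day 5, and 3 of 7 (WT) and 4 of 8 (KO) at day 10. The shares over all genes given above are for best peaks, and none was computed for overlapping peaks. The change in points moved by over 1.5 times for 7 values. At day 5 these were Atoh1 in WT cells (-3.33 in place of -15.0), Hand1 in WT cells (18.1 in place of 9.94) and Neurog2 in KO cells (-35.97 in place of -13.2). At day 10 they were Olig2 (-18.5 in place of -7.57) and Hand1 (-3.38 in place of -19.6) in WT cells, and Olig2 (40.7 in place of 5.15) and Hand2 (30.98 in place of -22.6) in KO cells. The comparison by overlapping peaks was chosen after the values had been seen.

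**Figure D4:**
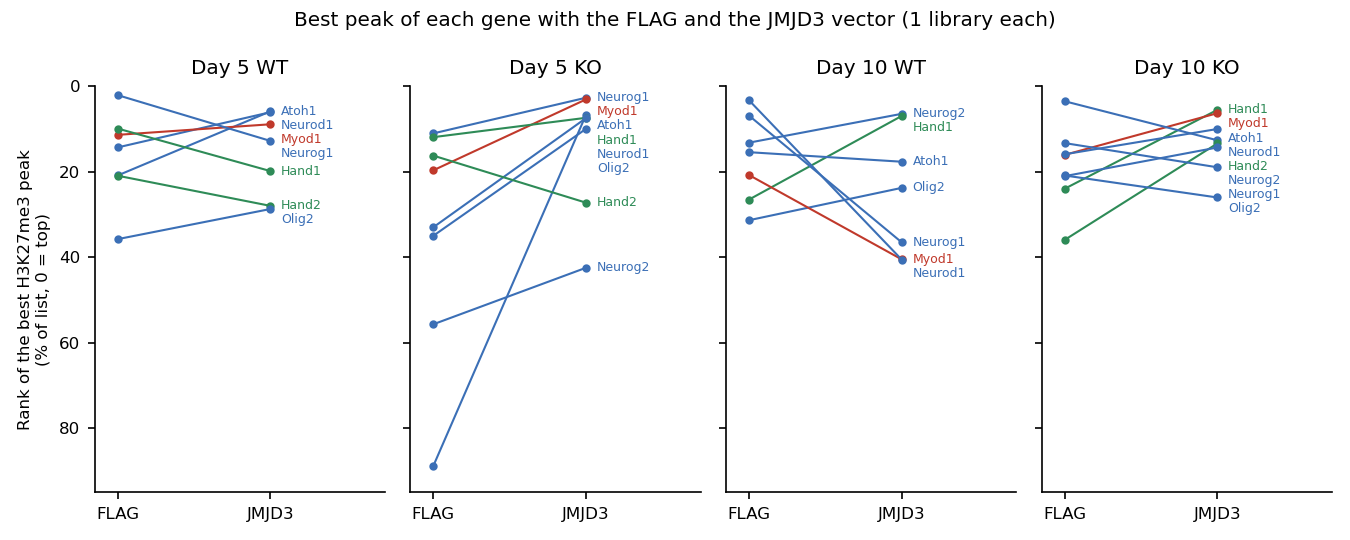
Rank of the best H3K27me3 peak of each bHLH gene as a percent of its list (y axis, 0 at the top) with the FLAG and the JMJD3 vector (x axis) in the 4 pairs of libraries, for genes with a peak in both; lines join the same gene and are coloured by class (neural blue, muscle red, heart green). In day 5 KO cells 7 of 8 lines rise towards the top of the list with JMJD3, and in the other pairs lines run both ways.

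In the MEF and FLAG lists, time and genotype changed the call of a single gene, Hand2, within the 5 kb window. The Hand2 call rests on that window: within 10 kb 0 genes differed in any of these 7 pairs of lists. Other settings gave more genes than 1, with up to 3 in a pair within 2 kb or by peak midpoints, and up to 4 with the better-scoring 50% of each list. The values that follow are for the 5 kb window. From WT MEFs to day 5 WT FLAG cells none of 7 bHLH genes lost its peak (22.2% of all genes with a peak did) and Hand2 gained one. From KO MEFs to day 5 KO FLAG cells none of 8 lost it (15.2%). From day 5 to day 10 with FLAG, Hand2 was the 1 of 8 genes that lost its peak in WT cells (28.5%), and none of 8 did in KO cells (22.6%). Between genotypes, no gene marked in WT cells was unmarked in KO cells, in MEFs (0 of 7, against 35.6% of all genes), at day 5 (0 of 8, 17.9%) or at day 10 (0 of 7, 18.4%). Hand2 was marked in KO but not in WT cells in MEFs and at day 10. In the JMJD3 lists the call of Neurog2 differed too: it had no peak in day 5 WT cells, 1 in day 10 WT cells and 2 in day 5 KO cells.

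Summed over 5 lists each, KO cells had 63 peaks near these genes and WT cells 51, with 26549 and 26622 peaks in the lists in total. The difference shrank to 48 against 45 peaks with all lists reduced to the length of the shortest, and to 46 against 43 with the better-scoring 50% of each list. It did not shrink in this way within 2 kb (42 against 31), within 10 kb (98 against 78) or with peak midpoints inside the window (58 against 44). The extra KO peaks lay at Hand1 and Hand2 among others: the TSS peaks of Hand1 were called in KO lists only. Median ranks of the best peak over the 5 lists of a genotype were close for Neurog1 (9.81% in WT, 11.8% in KO), Myod1 (16.7% and 16.1%) and Hand1 (10.5% and 11.96%). They were farther apart for Neurog2, at 10.5% in 4 WT lists and 41.0% in 5 KO lists, with ranges that overlapped.

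The reason to look for KLF4 and JMJD3 near these genes is that the study examined whether KLF4 brings JMJD3 to its targets. Of the 9 bHLH genes, 5 had a KLF4 peak or a JMJD3 position within 50 kb in at least 1 of the 4 lists, against 70.9% of all protein-coding genes. With FLAG, KLF4 peaks within 50 kb were found for 1 of 9 genes (Hand2), against 53.9% of all protein-coding genes, and with JMJD3 for 4 of 9 (Neurog2, Neurod1, Atoh1 and Hand2), against 62.2%. These counts move with the distance and the peaks kept. With FLAG and JMJD3 they were 0 and 2 within 10 kb (32.1% and 41.6% of all genes), 3 and 6 within 100 kb (66.99% and 73.4%), and 0 and 1 with the wider 50% of KLF4 peaks (37.3% and 46.9%). JMJD3 positions were found for 1 of 9 with OSKM (Hand1), against 48.9%, and for 1 of 9 with low KLF4 (Neurod1), close to the share over all genes (11.2%). Neurog1, Olig2, Myod1 and Myf5 had none of these within 50 kb. For Olig2 the nearest KLF4 peak was 147142 bp away with FLAG, and for Myod1 263297 bp.

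None of these 7 sites overlapped an H3K27me3 peak in any of the 10 lists, and overlap was rare throughout, at 3.06% (FLAG) and 4.00% (JMJD3) of all KLF4 peaks and 1.16% (OSKM) and 0.963% (low KLF4) of all JMJD3 positions. The KLF4 peak of Atoh1 was centred at -1131 bp from the TSS, 1031 bp from the nearest H3K27me3 peak, and was called with the JMJD3 vector only. That of Neurog2 was centred at -7662 bp, in intergenic DNA 1145 bp from the nearest H3K27me3 peak. The KLF4 peak assigned to Neurod1 lay 28047 bp downstream, over an exon of Cerkl. Ranked by width within its list, where a large percent is among the narrowest, the Atoh1 peak stood at 92.25%. The Neurog2 peak stood at 71.8%, the Neurod1 peak at 20.1%, and the Hand2 peaks at 89.9% (FLAG) and 65.95% (JMJD3). The JMJD3 position of Neurod1, from the low KLF4 list, fell 2423 bp downstream in the coding exon of Neurod1 itself, 183 bp from the nearest H3K27me3 peak. For Hand1 the JMJD3 position was 30727 bp away, in an exon of Sap30l.

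Hand2 had the only site shared by both KLF4 lists, centred at -15834 bp (FLAG) and -15900 bp (JMJD3) from its TSS in an exon of Hand2os1. Windows of 200 bp centred on 3 of these peaks are printed from GRCm38.p6, plus strand, because they are the KLF4 sites closest to a neural TSS and the one site shared by both lists: Atoh1 KLF4 with JMJD3 (chr6:64727894-64728093), Neurog2 KLF4 with JMJD3 (chr3:127625373-127625572) and Hand2 KLF4 with FLAG (chr8:57305049-57305248). A further window, of the Neurod1 KLF4 peak with JMJD3 (chr2:79428604-79428803), holds the fixed KLF pattern GGGTGNGG. Capitals mark that pattern in Neurod1 and the repeated unit CACGCCCAC in Hand2.
Atoh1: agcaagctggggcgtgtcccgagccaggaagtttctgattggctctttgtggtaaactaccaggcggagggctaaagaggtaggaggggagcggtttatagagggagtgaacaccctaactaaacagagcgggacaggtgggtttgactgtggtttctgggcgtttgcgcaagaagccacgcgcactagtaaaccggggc
Neurog2: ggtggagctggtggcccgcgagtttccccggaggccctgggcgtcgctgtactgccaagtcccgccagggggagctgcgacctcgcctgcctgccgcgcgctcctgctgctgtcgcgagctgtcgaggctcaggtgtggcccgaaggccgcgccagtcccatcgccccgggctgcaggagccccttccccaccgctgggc
Neurod1: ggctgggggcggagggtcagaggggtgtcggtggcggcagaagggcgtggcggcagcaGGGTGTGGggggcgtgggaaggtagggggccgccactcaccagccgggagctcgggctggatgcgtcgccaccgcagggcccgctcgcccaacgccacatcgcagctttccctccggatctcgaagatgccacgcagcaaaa
Hand2: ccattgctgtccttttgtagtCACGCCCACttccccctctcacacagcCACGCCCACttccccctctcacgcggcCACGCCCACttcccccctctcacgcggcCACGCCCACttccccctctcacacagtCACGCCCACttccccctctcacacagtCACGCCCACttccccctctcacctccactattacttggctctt

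The pattern GGGTGNGG, searched on both strands, was in the Neurod1 window alone of the 5 KLF4 windows near these genes. It was in 32.1% of all windows of the KLF4 list with JMJD3 and 33.0% of that with FLAG (chromosome 18 left out). The paper reports motifs resembling the KLF4 motif at most of its KLF4 sites, so this fixed pattern is narrower. A window without it may still hold another form of the KLF motif. The Hand2 window held 6 copies of CACGCCCAC within 200 bp. At least 1 copy was in 3.56% of the KLF4 windows with FLAG, and 5 or more in 0.0194%. The unit was chosen after the window had been read, and a match of letters is a description of the sequence, not evidence of binding at them. In the 7 promoters the pattern GGGTGNGG occurred in Neurod1 only (18.1% of all promoters hold it) and the E-box CANNTG in Neurog1, Neurod1 and Hand2 (68.5% of all promoters).

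**Figure D5:**
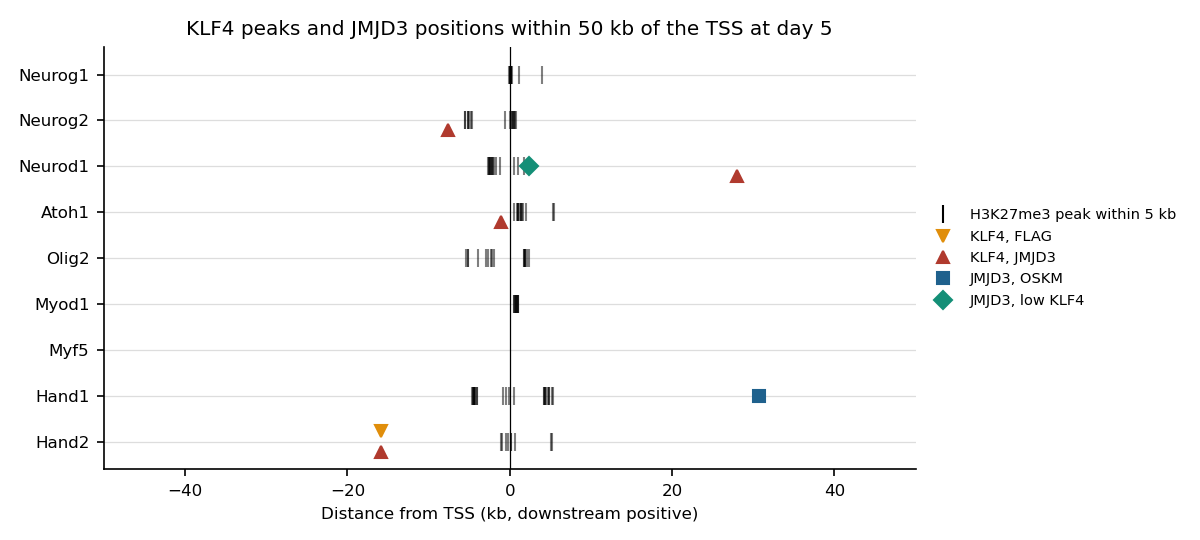
KLF4 peaks and JMJD3 positions at day 5 within 50 kb of the TSS of each bHLH gene (x axis, kb from the TSS, downstream positive), with 1 row per gene; black ticks are the midpoints of H3K27me3 peaks within 5 kb in any of the 10 lists, and coloured symbols the 4 binding lists. Only Hand2 carries a symbol from both KLF4 lists, at the same place, and Neurog1, Olig2, Myod1 and Myf5 carry none.

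Other bHLH genes showed how far the pattern extends by function. Of 13 other neural bHLH genes, 5 had an H3K27me3 peak in all 10 lists (Neurod2, Bhlhe22, Bhlhe23, Nhlh2 and Ptf1a), and only Neurod4 had one in none. Of 11 other mesodermal genes, 3 had one in all lists (Tcf15, Mesp1 and Ferd3l) and 3 in none (Myog, Myf6 and Scx). Twist1 and Twist2, which are active in fibroblasts, had one in 2 and 4 lists. Among blood genes Tal1 had a peak in all 10 lists and Lyl1 in none. Of 6 Notch effectors, Hey1 was marked in all 10 lists, Hes5 in 9 and Hes1 in none.

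The partners and inhibitors of these factors are the E proteins and Id proteins. None of their 7 genes (Tcf3, Tcf4, Tcf12 and Id1 to Id4) had an H3K27me3 peak near a TSS in any list, as was the case for 77.6% of all genes. All 7 had a KLF4 peak within 50 kb in both KLF4 lists (53.9% of all genes with FLAG, 62.2% with JMJD3), all 7 a JMJD3 position with OSKM (48.9%), and 4 with low KLF4 (11.2%). Among the 13 other neural genes KLF4 was found near 2 with FLAG and 5 with JMJD3, and JMJD3 near 5 with OSKM and 1 with low KLF4, to be read against the same shares. With 1 library per group these counts are descriptions of the lists.

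H3K27me3 peaks near the 9 genes were also rich in CpG. All peaks have the same width of 1000 bp, and the median number of CpG in peaks near these genes was 34 to 53 in the 10 libraries, above the median over all peaks of the same list (21 to 35) in each. That background also holds peaks far from any TSS, whereas the peaks near these genes lie within 5 kb of one. A background of peaks near a TSS was not computed, so the part of the window in this difference was not tested. Of the 114 peaks near these genes, 55 had their midpoint in an exon (48.2%), 14 in an intron (12.3%) and 45 between genes (39.5%). Over all genes, counted in the same way, the shares were 33.3%, 49.2% and 17.5% of 31033 pairs of a gene and a peak. Of the bHLH peaks 20 were centred within 500 bp of the TSS (17.5%, against 24.96% over all genes), 43 lay farther upstream (37.7%, against 18.1%) and 51 farther downstream (44.7%, against 56.9%). Every one of the 10 lists had an overlapping peak for 51 of the 114 (44.7%, against 27.2%), and 2 were in 1 list only (6.36% over all genes). Peaks of 1 gene in different lists are not independent, so these shares are descriptions.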

How the data were processed

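The members and gene lists were chosen with earlier results of these data known. Peak lists of 14 of 20 samples were used, with groups from the labels; 4 inputs and 2 H3K27ac samples were not used here. Reads had been aligned by the authors to mm10 with bowtie2 (2.2.0 in the submitters' processing notes; the methods name another version), and peaks called by DFilter (H3K27me3) or MACS2 (KLF4, JMJD3). H3K27me3 reads were scaled to a Drosophila spike-in; whether this entered the calls was not stated. The deposited H3K27me3 files hold 1000 bp intervals and a score (6.56 to 200), which served only for ranks within a list. The deposited KLF4 files give intervals and the JMJD3 files positions of 1 bp, neither with a usable score. Read depth is not part of the lists and was not used here, so a longer list may come from more reads. The paper's supplement is described as giving the reads of the H3K27me3 ChIP-seq, and list length was not compared with them.

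A gene was called marked when a peak reached within 5 kb of any TSS of its GENCODE M21 basic transcripts, and bound within 50 kb; distances in the text are from the 5' end of the gene to the peak midpoint, and from any TSS to the nearest edge. The best 25% of a list was the high-ranking background. A gene's best rank is that of its highest-scoring peak in the window, tied scores sharing the better rank. Sequences came from RefSeq and GRCm38.p6, the build of mm10, and the coordinates of 500 of 500 promoters were checked against the genome. Shares over all genes or promoters are complete counts and carry no interval. With 1 library per group no test was run. Gene counts were checked against bedtools 2.31.1, and distances, overlaps and motifs were tested on simulated data; Python 3.11.15, pysam 0.24.0 and samtools 1.23.1 were used. The 9 genes are all named; of the other bHLH genes those at the ends of their list were named, and 1 gene is not reported here by itself. Alternatives changed the window, the score threshold, list length, the TSS set, the overlap rule and the binding distance.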

Additional observations from a re-analysis of the deposited data

Results flagged for a closer look

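Some values moved in opposite directions in groups that were compared in the same way; with 1 library per group these differences were not tested. With JMJD3 minus FLAG, the number of peaks near the 9 genes changed by -1 in day 5 WT cells, by 1 in day 5 KO cells and by 2 in day 10 WT cells. For the KO pair of day 10 it went from 11 to 14. The other values are changes in the rank of a gene's best H3K27me3 peak in percentage points of the list, where a negative value is nearer the top with JMJD3.

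Between genotypes at day 5, Neurog1 changed by 10.7 points in WT and -8.34 in KO cells, and Hand1 by 9.94 and -4.53. At day 10, Atoh1 changed by 2.23 points in WT and -5.91 in KO cells, Olig2 by -7.57 and 5.15, and Myod1 by 19.7 and -9.75.

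Between day 5 and day 10 in WT cells, Neurod1 changed by -8.24 and 37.3 points, Atoh1 by -15.0 and 2.23, Myod1 by -2.47 and 19.7, and Hand1 by 9.94 and -19.6. Between day 5 and day 10 in KO cells, Neurog1 changed by -8.34 and 5.67 points, Neurod1 by -25.5 and 9.14, Olig2 by -25.0 and 5.15, and Hand2 by 11.0 and -22.6. By the overlapping peak in place of the best one, Hand2 changed by 30.98 points in day 10 KO cells, so its opposite direction was lost. At day 5 in WT cells Atoh1 then changed by -3.33 and Hand1 by 18.1 points. At day 10, Hand1 changed by -3.38 and Olig2 by -18.5 in WT cells, and Olig2 by 40.7 in KO cells, each in the direction given above.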

How the results depend on the processing

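No paired analysis was run: the labels give no replicate numbers, and no value here comes from a test. The 4 FLAG and JMJD3 pairs differ in genotype or day and were described pair by pair, with no fit across them. Of 216 values recomputed under an alternative, 162 stayed within 1.5 times the reported count, and 54 did not. Genes with a peak stayed at 7 to 8 with the 5' end of the gene only, where no count moved.

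Within 2 kb, 5 genes were marked in KO MEFs and 4 in day 10 WT FLAG cells. Peaks near the genes then numbered 6 (WT MEFs, KO MEFs, day 5 WT JMJD3), 4 (day 10 WT FLAG) and 7 (day 10 WT JMJD3, day 10 KO FLAG), and Hand1 kept a peak in 3 lists. Genes marked in 1 list of a pair numbered 2 (WT MEFs to day 5, WT against KO MEFs), 3 (KO MEFs to day 5, WT day 5 to 10, genotypes at day 10) and 1 (KO day 5 to 10, genotypes at day 5). Within 10 kb there were 16 (WT MEFs, day 5 WT JMJD3), 17 (KO MEFs), 18 (day 5 WT FLAG), 24 (day 5 KO JMJD3) and 22 peaks (day 10 KO JMJD3). Genes with a FLAG peak and no JMJD3 peak then numbered 0 at day 5 WT and 1 at day 10 WT (Hand2). Between WT MEFs and day 5, WT day 5 and 10, and the genotypes in MEFs and at day 10, 0 genes differed.

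With the better-scoring 50% of each list, 7 peaks were left in KO MEFs and 7 in day 5 KO FLAG cells, and 4 (KO MEFs to day 5), 2 (KO day 5 to 10) and 2 genes (genotypes at day 5) differed. With lists of equal length, 7 peaks were left in day 5 KO FLAG cells, 2 genes differed in each of these 3 pairs, and 0 (day 10 WT) and 1 (day 10 KO) FLAG peaks had no JMJD3 peak. With midpoints inside the window, 2 (WT MEFs to day 5, WT day 5 to 10, genotypes at day 10), 1 (KO MEFs to day 5) and 3 genes (genotypes in MEFs) differed. With an overlap of at least 50%, FLAG peaks without a JMJD3 peak rose to 6 (WT) and 5 (KO) at day 5, and to 3 (WT) and 4 (KO) at day 10.

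Within 10 kb, KLF4 was near 0 genes (FLAG) and 2 genes (JMJD3 vector), and JMJD3 itself near 0 with OSKM. Within 100 kb, KLF4 with FLAG was near 3 and JMJD3 with OSKM near 2. With the wider 50% of KLF4 peaks, 0 (FLAG) and 1 gene (JMJD3) had a peak. Apart from settings that keep fewer or more peaks by construction, the cause was not tested. Counts of 9 genes move by 1 peak at an edge, and the depth of the libraries, which limits every list, was not taken into account.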
